A study of Drosophila melanogaster with 57 samples.

Results

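The nuclear genes of oxidative phosphorylation were taken from the dm6 annotation by symbol, as the protein-coding genes of the nuclear chromosomes whose symbol begins with ND-, COX, UQCR- or ATPsyn, together with SdhA, SdhB, SdhC and SdhD. This rule gave 84 of the 13968 nuclear protein-coding genes, and it used no measured value. Complex I contributed 40 of them, complex II 4, complex III 9, complex IV 16, and complex V 15. Each gene was compared with the list of regions that the authors deposited as piRNA clusters of the *Drosophila* ovary. A gene counted as overlapping when its body shared at least 1 bp with a region. The paper identified piRNAs by read length and gives as a caveat that neither binding to Piwi-family proteins nor methylation of the read ends was checked. An overlap therefore does not show that verified piRNAs come from a gene.

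The study sequenced small RNAs from 6 groups of 3 libraries, or 18 libraries in 30 runs, and the deposited list holds the 3356 regions that the authors treat as newly identified clusters, apart from the canonical clusters of earlier work. The ovary groups were wild type (w1118), mutants of bam (bamΔ86), mutants of bgcn (bgcn20093 and bgcn20915), and flies with the activated receptor transgene UASp-tkvM1, which nos-gal4 drives in germ cells. The cultured groups were germline stem cells (GSCs) and the somatic cells (SCs) grown with them, sorted by germline GFP from 1 line, which the sample labels spell vasa-GFP;hs-bam;bamΔ86 and the protocol vasa-GFP; hs-bam bamΔ86/bamΔ86, so that both carry the bam mutation, and the paper's text allows for a few GSCs among the SCs. The list carries a chromosome, a start and an end for each region, with no count, strand or library. Neither sequencing depth, nor the group of origin, nor the spread between replicates can be read from it, the counts of piRNA starts by group that accompany the paper were not used here, and all values below are descriptions without a test.

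Oxidative phosphorylation passes electrons from NADH through complex I, or from succinate through complex II, to complex III and then to complex IV, which reduces oxygen, and complex V uses the resulting proton gradient to make ATP. Most subunits are encoded in the nucleus, and several have a paralog whose symbol carries the suffix L, for like. Many of these paralogs are known in *Drosophila* for expression mainly in the testis. The libraries here came from ovaries and ovarian cells, and a link between expression and overlap was not tested. piRNAs guide Piwi-family proteins to transposable elements, and in the ovary they also arise from the transcripts of some protein-coding genes.

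Of the 84 genes, 57 (67.9%) overlapped a region, whereas 43.7% of all nuclear protein-coding genes did so. To allow for gene length and chromosome arm, each gene was set beside the 50 other protein-coding genes of its own arm that were nearest to it in length, and the mean share of these that overlapped was added up over the 84 genes. These genes of like arm and length gave 31.1 overlaps (37.0%). A total of 55 genes had at least 50% of the body covered, compared with 33.2% of all genes and 28.2 genes by arm and length. The whole body lay in a region for 40 genes, or 47.6%, compared with 21.3% of all genes and 21.6 genes by arm and length. The start site lay in a region for 45 genes, or 53.6%, compared with 27.1% of all genes and 24.3 genes by arm and length. Regions covered 65.0% of the 172383 nt of these gene bodies, compared with 30.4% by arm and length and 27.4% over all genes. The median gene of the 84 had 98.8% of its body covered, and the median of all genes was 0.

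The genes divided by the L suffix (see the plot of coverage gene by gene). Among the 63 genes with no L suffix, 53 (84.1%) overlapped a region, compared with 24.1 by arm and length. Among the 21 genes with an L suffix, 4 (19.0%) did, compared with 7.04 by arm and length. Regions covered 75.0% of the bases of the former and 14.2% of the latter. The median gene with no L suffix was covered over its whole length, and the median gene with the suffix had no base in a region. Of the 21 genes, 17 bear the name of another of the 84 genes plus L, and the other 4 are COX6AL, COX6AL2, COX6CL and ATPsynepsilonL, whose counterparts have unrelated symbols and which were added to this class after the overlaps had been seen. With only the 17 set apart, 53 of the other 67 genes (79.1%) overlapped, compared with 25.6 by arm and length. The counts for genes with no L suffix below therefore rest in part on that later choice. ND-MNLL ends in L as part of its own name and was counted among the 63.

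**Figure D1:**
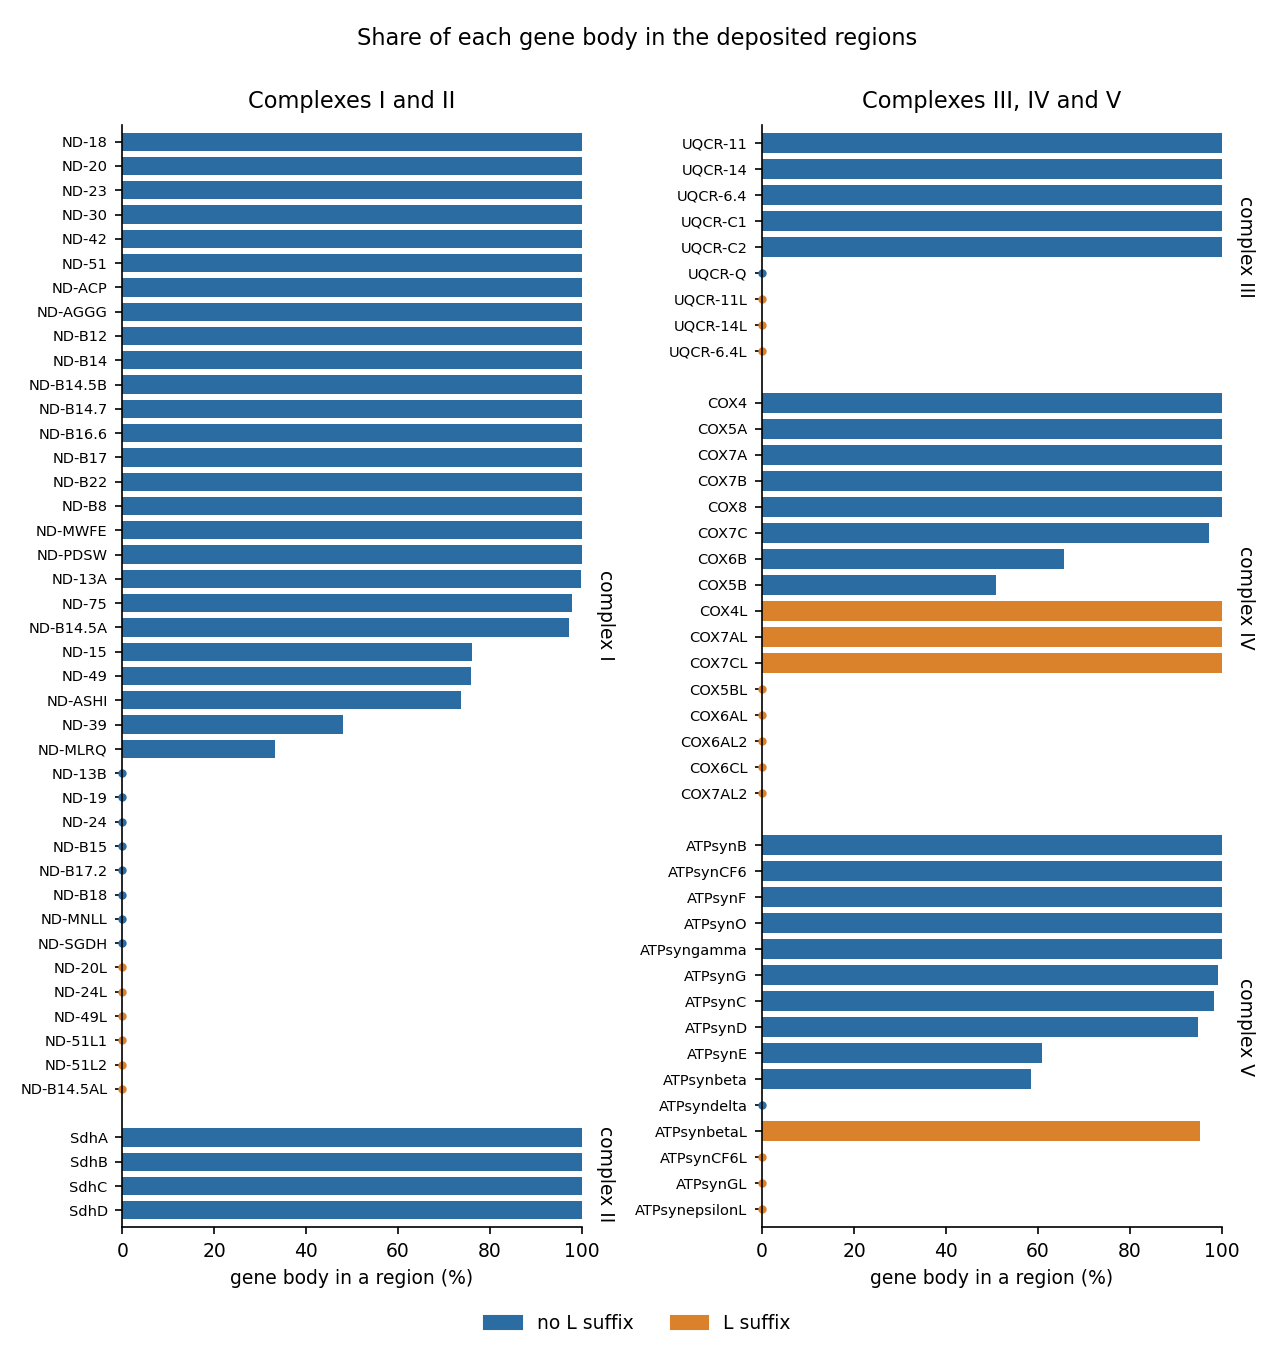
Percent of each gene body that lay in a deposited region, for all 84 genes by complex. Blue bars are genes with no L suffix and orange bars are genes with it, and a dot marks a gene with no covered base. Most blue bars reach 100%, and 17 of the 21 orange genes sit at 0.

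Complex I, the NADH dehydrogenase, had 26 of its 34 genes with no L suffix in the list (76.5%, compared with 13.9 by arm and length) and 0 of its 6 genes with the suffix. Of the 7 core subunits, which carry the flavin and the iron-sulfur centers, 6 overlapped. ND-51, which holds the flavin and the NADH site (2L, 6060842 to 6062757), ND-30 (3L, 3158485 to 3159578), ND-20 (X, 15985473 to 15986808), and ND-23 (3R, 15836048 to 15837117) lay entirely in regions. ND-75, the largest iron-sulfur subunit (X, 8248651 to 8251687), was covered over 97.8% of its body, and its first 67 nt lay outside. ND-49 (4, 568296 to 571554) was covered over 75.8%, in a region that reached neither end of the gene but held all of its coding sequence. The exception was ND-24 (X, 17632089 to 17633509), the iron-sulfur partner of ND-51 in the NADH-binding module, whose nearest region lay 6475 nt away.

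The accessory subunits of complex I surround this core. Of these 27 genes, 20 overlapped a region, compared with 11.2 by arm and length, and 14 of them lay entirely inside, compared with 8.30. ND-ACP, the acyl carrier protein, ND-42 and ND-B8 were among those wholly covered, and the region at ND-B8 (2L, 4442443 to 4469881) held 14 other protein-coding genes. Those outside the list were ND-13B, ND-19, ND-B15, ND-B17.2, ND-B18, ND-MNLL and ND-SGDH. ND-B17.2 (2L, 2579201 to 2580172) came closest, with 130 nt between it and a region, and ND-13B (3L, 10693184 to 10694108) lay 51422 nt from one.

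The lowest coverage among genes that overlapped was found in complex I. ND-MLRQ (3L, 23339326 to 23345936) had 33.3% of its body in a region and none of its coding sequence, and ND-39 (3L, 20492082 to 20497084) had 48.0% of its body and all of its coding sequence. ND-15 is the longest of the 84 genes, with 41305 nt (2L, 114726 to 156030), and 76.1% of it lay in a region that held 10 other protein-coding genes and no base of the ND-15 coding sequence. No gene that overlapped had less than 10% of its body covered. The overlaps of ND-15 and ND-MLRQ therefore rested on introns and untranslated exons alone.

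Complex II oxidizes succinate, and all 4 of its genes lay entirely in regions, compared with 1.46 overlaps by arm and length. SdhA, the flavoprotein (2R, 19391863 to 19395971), had 9455 nt of its region before the gene's start and 1684 nt after its end. SdhB, the iron-sulfur subunit (2R, 6807626 to 6809172), lay in a region of 11892 nt. The membrane anchors SdhC (3R, 11208887 to 11209849) and SdhD (3R, 23759483 to 23760600) lay in regions of 8853 and 8534 nt. The 3 paralogs SdhAL, SdhBL and SdhCL, which the symbol rule does not take in, had no base in a region.

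Complex III passes electrons from ubiquinol to cytochrome c. Of its 6 genes with no L suffix, 5 overlapped (2.16 by arm and length), and each of the 5 was wholly covered, including the core proteins UQCR-C1 (3R, 14890231 to 14892387) and UQCR-C2 (3L, 16584124 to 16586111). UQCR-Q (3L, 17474761 to 17476124) lay 6267 nt from the nearest region. UQCR-11L, UQCR-14L and UQCR-6.4L had no covered base, and the shortest of the 84 genes, UQCR-11L with 443 nt (2R, 8677219 to 8677661), was 770 nt from a region.

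Complex IV, the cytochrome c oxidase, had all 8 of its genes with no L suffix in the list, compared with 2.40 by arm and length. COX6AL, COX6AL2 and COX6CL, with no covered base, were kept out of this class only after the overlaps had been seen. Of all 16 genes of the complex, 11 overlapped, compared with 5.58 by arm and length. COX4, COX5A, COX7A, COX7B and COX8 lay entirely inside, and COX7C was covered over 97.1%. COX6B (X, 19740537 to 19744335) was the only gene met by 2 regions, which left 1305 nt of intron between them and covered every exon. COX5B (2L, 6557800 to 6559308) was covered over 51.0%, as its region ended 740 nt before the end of the gene. Complex IV also held 3 of the 4 genes with an L suffix that overlapped, namely COX4L, COX7AL and COX7CL, out of 8 such genes. These 3 were close to the 3.18 that genes of like arm and length gave. COX4L (2R, 5353994 to 5354723) lay in a region of 44273 nt.

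Complex V, the ATP synthase, had 10 of 11 genes with no L suffix in the list, compared with 4.20 by arm and length. ATPsynepsilonL, with no covered base, was likewise kept out of this class. Of all 15 genes of the complex, 11 overlapped, compared with 5.48 by arm and length. ATPsyngamma, the central stalk (3R, 29747704 to 29749163), and the peripheral stalk genes ATPsynB, ATPsynO and ATPsynCF6 lay entirely inside, and ATPsynD, also of that stalk, was covered over 94.9%. ATPsynC, which forms the ring in the membrane (3R, 31216145 to 31219630), was covered over 98.4%. ATPsynbeta, the catalytic subunit (4, 1031484 to 1034917), was covered over 58.6% of its body and 94.7% of its coding sequence. On chromosome 4, where both ATPsynbeta and ND-49 lie, 91.2% of all protein-coding genes overlapped a region. ATPsyndelta (X, 10212970 to 10217393) had no covered base and lay 21341 nt from a region.

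**Figure D2:**
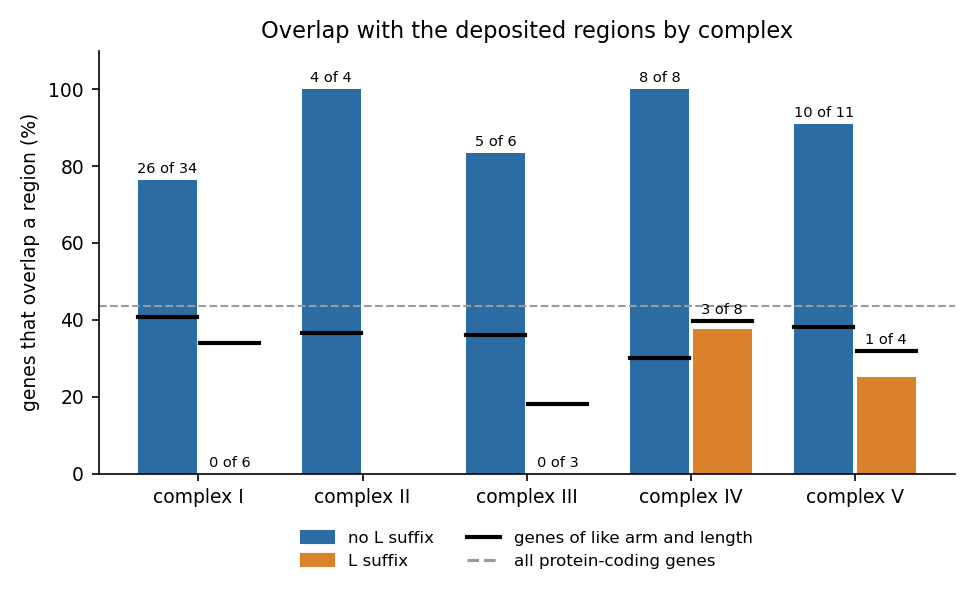
Percent of genes that overlapped a region in each complex, for genes with no L suffix (blue) and with it (orange). Black lines give the share among genes of like arm and length, and the dashed line marks the 43.7% of all nuclear protein-coding genes. The blue bars stand above their black lines in all 5 complexes, from 76.5% in complex I to 100% in complexes II and IV. In complexes IV and V, some genes were placed in the orange class after the overlaps had been seen. The orange bars rest on few genes. Their counts were 0 in complex I (2.04 by arm and length) and 0 in complex III (0.54). In complexes IV and V they were close to the comparison, with 3 (3.18) and 1 (1.28).

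The 17 paralogs whose counterpart is also among the 84 genes formed 17 pairs with 15 different counterparts. In 12 pairs the gene without the suffix overlapped a region and its paralog did not, in 4 pairs both did, in 1 pair (ND-24 and ND-24L) neither did, and in no pair did only the paralog overlap. The paralogs of this kind gave 4 overlaps, compared with 5.52 by arm and length. COX7AL and COX7CL lay in the same region as COX7A and COX7C, the former pair 2625 nt apart and the latter 281 nt apart. COX5BL and COX5B are 122 nt apart, but the region that covers the first 769 nt of COX5B stopped before its paralog, which lay 862 nt away. ATPsynbetaL (3L, 16097834 to 16100088) was covered over 95.3% by another region than ATPsynbeta.

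**Figure D3:**
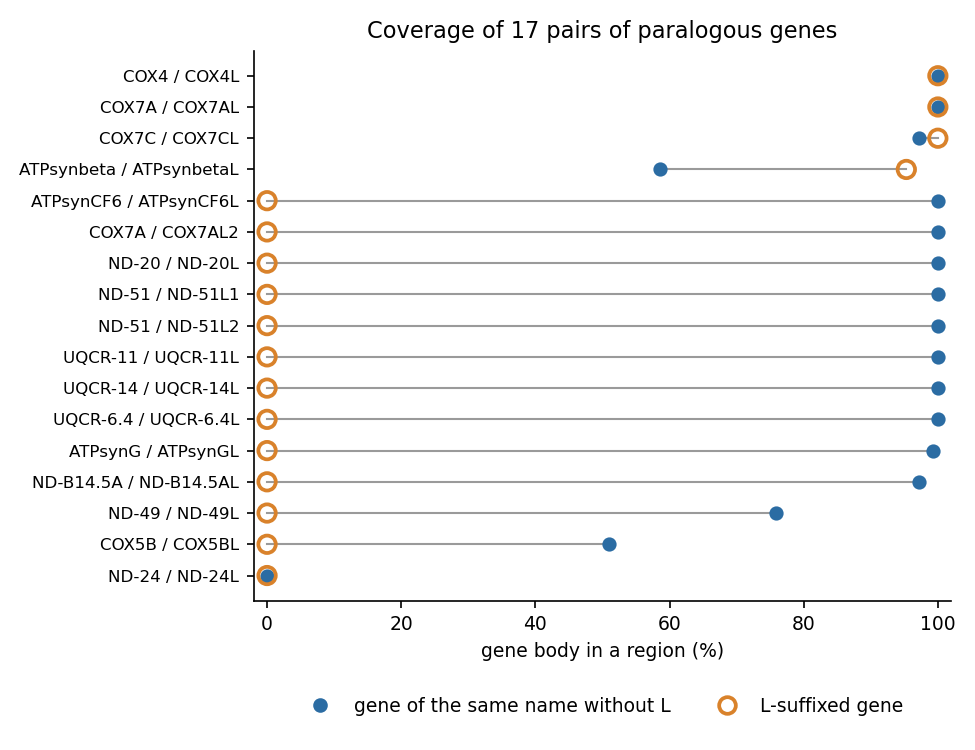
Percent of the gene body in a region for the 17 pairs of paralogs, with the gene of the same name without L as a filled blue circle and the L-suffixed gene as an open orange circle. In 12 pairs the blue circle lies between 51.0% and 100% and the orange circle at 0.

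The coding sequences of these pairs have diverged. Identity over aligned coding bases ran from 58.0% to 78.7% with a median of 67.8%, and the longest run of identical bases between the gene bodies had a median of 13 nt. A single pair, UQCR-14 and UQCR-14L, shared a run of at least 23 nt, the shortest read length that the authors scanned for, and that run had 36 nt. UQCR-14 was wholly covered and UQCR-14L not at all. The paper describes unique placement with a mismatch allowed in its Results and with exact matching in its Methods. Runs broken by a mismatch were not counted here, so more pairs could share a read if a mismatch was allowed. For the most similar 60 nt of the coding sequence in 5 pairs, the strand of the gene is printed 5′ to 3′ to show how far a read from 1 gene could match the other, with the bases that differ in capitals. In UQCR-14 and UQCR-14L, 57 of the 60 bases are the same:
UQCR-14: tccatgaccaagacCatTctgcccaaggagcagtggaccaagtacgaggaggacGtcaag
UQCR-14L: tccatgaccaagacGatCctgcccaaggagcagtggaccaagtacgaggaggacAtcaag
In ND-20, which was wholly covered, and ND-20L, which was not covered, 53 of 60 bases are the same, and the longest shared run has 20 nt:
ND-20: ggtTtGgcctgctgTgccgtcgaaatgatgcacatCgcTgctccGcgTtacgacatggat
ND-20L: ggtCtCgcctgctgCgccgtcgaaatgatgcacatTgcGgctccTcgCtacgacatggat
In ND-49 and ND-49L, of which only ND-49 overlapped a region, 51 of 60 bases are the same:
ND-49: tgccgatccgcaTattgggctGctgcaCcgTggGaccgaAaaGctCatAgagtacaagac
ND-49L: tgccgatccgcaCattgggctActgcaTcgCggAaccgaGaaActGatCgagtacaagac
In ATPsynG, covered over 99.2%, and ATPsynGL, which was not covered, 47 of 60 bases are the same:
ATPsynG: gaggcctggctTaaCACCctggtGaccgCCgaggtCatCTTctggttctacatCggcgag
ATPsynGL: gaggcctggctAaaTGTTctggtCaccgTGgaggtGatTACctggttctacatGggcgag
In COX7A and COX7AL, which lie in the same region, 39 of 60 bases are the same:
COX7A: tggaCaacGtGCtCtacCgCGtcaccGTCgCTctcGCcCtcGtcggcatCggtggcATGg
COX7AL: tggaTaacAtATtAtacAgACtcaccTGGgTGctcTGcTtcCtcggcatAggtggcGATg

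Most of the genes were unique in the assembled chromosomes. In 69 of the 84 genes, every 25-mer of the body occurred once in the assembly on either strand, and in 2 genes under 90% did. Those were ND-MLRQ, with 85.7%, and ND-AGGG, with 18.9%. Of all 13968 nuclear protein-coding genes, 8376 had every 25-mer once, and 984 had under 90%. These are longer genes, with a median of 2164.5 nt beside 1097 nt for the 84. ND-AGGG (3L, 24976254 to 24977118) lay in the widest region of any of these genes, with 157335 nt, and most of its 25-mers also occur elsewhere in the assembly. Without it, 56 of 83 genes overlapped.

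The difference between the genes with and without the suffix was present in each class of gene length. Among all nuclear protein-coding genes, the share that overlapped rose with length, from 28.2% up to 1000 nt to 38.4% between 1000 and 2000 nt and 52.1% above 2000 nt. For genes with no L suffix it was 17 of 21 (81.0%), 25 of 30 (83.3%) and 11 of 12 (91.7%) in the same classes. For genes with the suffix it was 3 of 15, 0 of 2 and 1 of 4. Of all 84 genes, 11 of 16 overlapped on 2L, 11 of 17 on 2R, 11 of 19 on 3L, 14 of 18 on 3R, 2 of 2 on chromosome 4 and 8 of 12 on X. On each arm this was more than the genes of like arm and length gave, which ranged from 1.72 on chromosome 4 to 7.68 on 2L. On chromosome 4 the comparison says little. Its 50 comparison genes ran from 1159 to 14776 nt, beside 3259 and 3434 nt for the 2 genes, and 86.0% of them overlapped.

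The overlap also held at the level of coding sequence. Coding bases met a region in 55 of the 84 genes, or 65.5%, compared with 40.8% of all genes. The coding sequence was covered in full in 52 of them, 61.9%, compared with 28.1% of all genes. In 12 genes the body was covered in part and the coding sequence in full, as in ND-ASHI, where the uncovered 487 nt lay at the start of the gene. Over the 63 genes with no L suffix, regions covered 86.6% of coding bases, 71.9% of introns, 66.6% of 5′ untranslated bases and 70.2% of 3′ untranslated bases. Over all protein-coding genes, the corresponding shares were 38.3%, 21.4%, 24.7% and 43.7%, so that 3′ untranslated bases had the highest coverage there and coding bases did among the 63 genes. These shares pool bases over genes, so long genes weigh most. ND-15 alone makes up 41305 of the 143947 nt of the 63 bodies, with 76.1% of its body and 23.4% of its exon bases covered. Flanks of 2000 nt were covered over 61.2% before the start and 58.8% after the end of the 63 genes, compared with 29.6% and 34.2% for all genes.

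**Figure D4:**
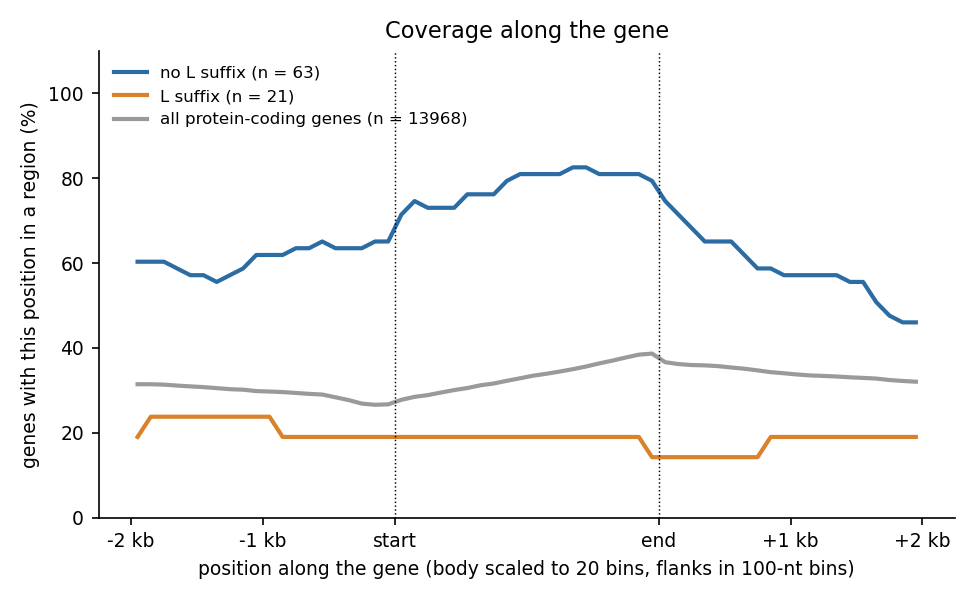
Percent of genes with a given position in a region, from 2 kb before the gene's start to 2 kb after its end, with the body of each gene scaled to 20 bins. Genes with no L suffix (blue) rise from 60.3% at the left edge to 82.5% within the body and fall to 46.0% at the right edge, genes with the suffix (orange) stay between 14.3% and 23.8%, and all protein-coding genes (grey) peak at 38.7% near the end of the gene.

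Most of the regions were wider than the genes and were shared with their neighbors. The authors kept only regions above a minimum width, which exceeds the median length of the 84 genes (1097 nt). Regions wider than most of these genes therefore follow from that filter. The 57 genes were met by 56 regions with a median width of 9233 nt, compared with 6473 nt for the whole list, and the median region held 4 protein-coding genes. A wider region meets any gene more readily, and the regions that meet other genes were not measured. For the wholly covered genes, the region extended 4076 nt before the start and 2981 nt after the end in the median. Only 3 of the regions held a single protein-coding gene, those at ND-49, ND-MLRQ and UQCR-11. The 125 protein-coding genes next to the 63 genes, on either side and not overlapping them, met a region in 95 cases (76.0%, compared with 57.6 by arm and length). Those next to the genes with the L suffix did so in 13 of 40 cases (32.5%, compared with 16.7 by arm and length). The part of the neighbors in the overlap of the genes themselves was not tested.

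Since the list has no strand, bases shared by overlapping genes cannot be assigned to either gene. Of the 63 genes, 32 share bases with another protein-coding gene, and 25 of these overlapped a region. The other 31 stand alone, and 28 of them (90.3%) overlapped. Of the genes with the L suffix, 11 share bases with another protein-coding gene, and 1 of these overlapped. The other 10 stand alone, and 3 of them overlapped. This split was not made for all protein-coding genes, so these counts have no comparison. UQCR-14, which was wholly covered, lies within the body of CG32576, and ND-MNLL, which had no covered base, has the same bounds as CG45089. Among the genes with the L suffix, 9 of 21 lie within the body of another protein-coding gene, and none of the 9 had a covered base, although the bodies of Acsl, Smurf, Trmt6 and Trpm, which contain UQCR-11L, ND-51L1, COX5BL and ND-51L2, met a region elsewhere. Over the genome, 1742 protein-coding genes (12.5%) lie within another, and 27.0% of these overlapped a region. The genes with the L suffix are thus nested more often (42.9%), and the comparison by arm and length did not match genes on nesting.

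These regions held less repeat sequence than the list as a whole. The median share of repeat-masked sequence was 8.83% in the 56 regions, compared with 15.8% over all nuclear regions, and 43 of the 56 held no annotated transposable element insertion. The share of all regions without an insertion was not counted. Regions that meet other protein-coding genes were not measured either, so neither value can be called particular to these genes. The region of COX4L differed from the rest in holding 39 insertions, and no other of the 56 held more than 7. The region at UQCR-11 was repeat-masked over 51.9% and that at ND-AGGG over 37.6%.

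The nuclear respiratory gene element, a short element described for such genes in *Drosophila*, was searched on both strands from 250 nt before to 50 nt after the start of each gene, in the forms TTACATAA, TTACGTAA, TTATATAA and TTATGTAA. The form TTATATAA also contains the letters of a TATA box. At least 1 match was found in 5 of the 63 genes with no L suffix (7.94%), in 0 of the 21 genes with it, and in 5.18% of all nuclear protein-coding genes. All 5 belong to complex I, and 3 of them overlapped a region and 2 did not. To show a match inside and outside the list, 100 nt upstream are printed 5′ to 3′ on the strand of the gene, from the same build, with the match in capitals. The stretch at ND-30 (3L, 3159686 to 3159785) lies in a region and that at ND-SGDH (3L, 12138617 to 12138716) lies outside the list:
ND-30: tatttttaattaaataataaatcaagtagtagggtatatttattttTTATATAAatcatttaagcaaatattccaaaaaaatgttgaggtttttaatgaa
ND-SGDH: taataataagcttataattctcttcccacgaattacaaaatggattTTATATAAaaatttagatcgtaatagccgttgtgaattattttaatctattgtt

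Other families of housekeeping and sensory genes were measured in the same way. Proteins of the cytosolic ribosome, with symbols RpL and RpS, overlapped in 79 of 92 genes (85.9%, compared with 35.04 by arm and length). This stood beside 84.1% of the 63 genes, or 79.1% of the 67 genes left when only the 17 named paralogs are set apart. Regions covered 88.8% of the ribosomal bases, beside 75.0% for the 63 genes. Proteins of the mitochondrial ribosome overlapped in 45 of 73 genes (61.6%, compared with 23.6 by arm and length), with 52.8% of bases covered. Chemoreceptors of the Or, Gr and Ir families, which act in sensory neurons, overlapped in 30 of 179 genes (16.8%, compared with 78.6 by arm and length), beside 19.0% of the genes with the L suffix. By bases these families lay further apart, with 34.4% covered in the chemoreceptors (35.3% by arm and length) and 14.2% in the genes with the suffix (35.1% by arm and length). The differences between families were not tested.

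**Figure D5:**
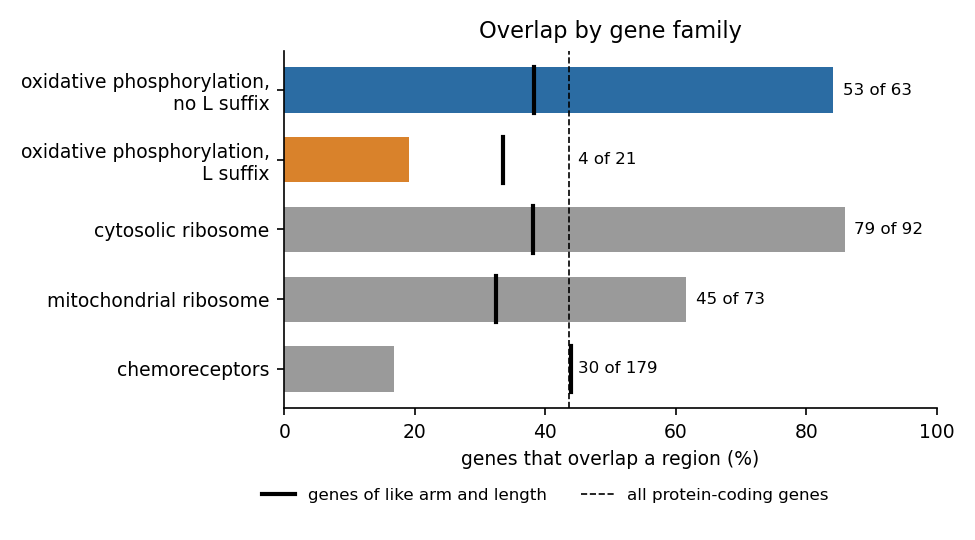
Percent of genes that overlapped a region in each family, with the share among genes of like arm and length as a black line and that of all nuclear protein-coding genes as a dashed line. Oxidative phosphorylation genes with no L suffix (84.1%) and cytosolic ribosomal proteins (85.9%) reach furthest, and genes with the suffix (19.0%) and chemoreceptors (16.8%) stay below their black lines.

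Several subunits carry other symbols that the rule does not take in. Of 9 such genes, a set put together after the overlaps of the 84 genes had been seen, 7 overlapped a region, beside 43.7% of all genes. They included blw, the alpha subunit of complex V, and ox, a small subunit of complex III, both wholly covered, as well as RFeSP, the iron-sulfur protein of complex III (98.3%), and Cyt-c1, its cytochrome (98.3%). The 2 without a covered base were cype, of complex IV, and NdufV3, of complex I. With these 9 genes added, 64 of 93 genes overlapped, compared with 34.1 by arm and length. Cyt-c-p, the main cytochrome c, was covered over 22.9%, and Cyt-c-d, the form known from the male germline, had no covered base. All 13 protein-coding genes of the mitochondrial genome, which encode the remaining subunits of complexes I, III, IV and V, lay in the 1 mitochondrial region of the list.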

How the data were processed

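The authors deposited 1 list for the whole study, which holds dm6 coordinates and no other measurement. They mapped small RNA reads to transposable element sequences with Bowtie2 and placed the remaining reads on dm6 with Bowtie. To find clusters, they scanned the genome for regions that contained reads of 23 to 35 nt and merged those close together. Regions were kept above a minimum number of unique reads per kilobase and a minimum width. Multi-mapped reads were kept at that step. Which libraries were scanned together is not given in the sources used here. No column of the list belongs to 1 sample, and the mRNA libraries were not used.

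Starts were converted to count from 1. Gene bodies came from Ensembl release 115 on BDGP6, which shares its coordinates with dm6, and sequence came from the RefSeq assembly. Expected overlaps are sums, over genes, of the share among the 50 genes of the same arm nearest in log length, the 84 genes left out. No sampling was used. Overlap code was tested on 600 made-up genes, of which 0 differed from a base-by-base count. The 84 genes and the gene families were chosen with earlier results of these data known. Genes were named from among those covered over at least 50%, those met over less than 10% of the body, those outside the list with a region within 1000 nt, the core subunits, the 3 longest and 3 shortest, and the paralogs with their counterparts. Beyond these examples, genes are given by range and count. ND-39 and the genes with no L suffix that lie over 1000 nt from a region, apart from the core subunit ND-24, fell outside this rule and were named after their values were seen. Alternatives changed the width, merging and overlap of regions, the part of the gene, the genes counted and the comparison genes. The computations used Python 3.11.15, NumPy 2.4.6 and Biopython 1.88, and the figures matplotlib 3.10.9.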

Additional observations from a re-analysis of the deposited data

How the results depend on the processing

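In each of the 20 alternatives that gave both counts, the genes overlapped regions more often than genes of like arm and length, by 1.495-fold to 2.201-fold, compared with 1.83-fold in the report. The lowest ratio came with regions of at least 10000 nt, where 27 genes overlapped (18.1 by arm and length), 26 had at least 50% of the body covered, and 25 had the start site in a region, with fewer regions by construction. The highest came without any gene with the L suffix, which was chosen after seeing the data, as were the addition of 9 subunits and the removal of ND-AGGG or ND-15. Leaving out each large arm in turn gave from 43 to 49 overlaps, compared with 23.4 to 26.8 by arm and length.

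The share of bases covered was 52.8% when regions under 5000 nt were dropped, 42.2% when those under 10000 nt were, 70.4% with regions within 5000 nt merged, 64.5% over exons, 69.0% over coding sequence, 71.3% without the 17 paralogs, 75.0% without all 21 genes with the suffix, and 61.5% without ND-15. Without chromosome 4 and any gene within 2 Mb of a centromeric end it was 64.9%. The 2 genes that this left out were both on chromosome 4. The setting therefore cannot show how far the share depends on genes near a centromere. All other counts stayed within 1.5 times the reported one. The shares are values with no interval, since the bases of a gene are not independent of each other. With 100 comparison genes, chromosome 4 has fewer than that and gave all it has.

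No paired analysis was possible because the list has no columns for libraries or replicates. Depth was not used to weight any value, since the list itself gives no counts. Whether reads in a region came from the gene, from its neighbors or from another copy was not tested.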
